A study of Mus musculus with 24 samples.

Results

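A set of 10 Kruppel-like factor (KLF) genes other than Klf5 and Klf15 were described in mouse adipocyte cultures: Klf2, Klf3, Klf4, Klf6, Klf7, Klf9, Klf10, Klf11, Klf13 and Klf16. They were taken by symbol, and all 10 were found among the 37310 genes of the expression tables. The set was chosen by measured values: Klf6 had been seen to differ in opposite directions with epigallocatechin gallate (EGCG) in white and brown fat cells on day 4, so the day 4 EGCG differences are given as a description with no test. The cells were stromal vascular cells, the mixed fraction of fat that holds adipocyte precursors, of inguinal white (WAT) and interscapular brown adipose tissue (BAT) from C57BL/6 mice 6 weeks old. In culture they received an adipogenic cocktail (insulin, dexamethasone and IBMX) until day 4 and then insulin with the thyroid hormone T3 until day 8. EGCG, a catechin of green tea, or DMSO (control) was present, and the labels give no dose. RNA sequencing of day 4 and day 8 cells gave 8 groups of 3 libraries, 24 in all: WAT day 4 control, WAT day 4 EGCG, WAT day 8 control, WAT day 8 EGCG and the same 4 for BAT. The labels name no altered gene in any group. The labels do not say whether replicates came from separate isolations of cells, so the p-values measure only the spread between libraries, which may be technical. In such bulk cultures, fewer cells of a type and less RNA per cell cannot be told apart.

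KLF proteins are transcription factors with 3 zinc fingers at the C terminus that bind GC-rich and CACCC-type DNA. Their N-terminal parts recruit different partners, so that some members mainly activate and others mainly repress. In fat cell formation, KLF4 is known as an early activator of Cebpb and KLF9 as an activator of Pparg, while KLF2 represses Pparg, KLF3 binds the corepressor CtBP and represses Cebpa, and KLF7 inhibits adipogenesis. KLF6 is known to repress Dlk1, the preadipocyte gene also called Pref-1. KLF10 and KLF11, known as TIEG1 and TIEG2, are induced by TGF-beta and, like KLF13 and KLF16, recruit the corepressor Sin3A. KLF9 is also a target of glucocorticoids and thyroid hormone.

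The promoters of 4 members are shown because their RNA differed in opposite directions with EGCG in BAT on day 8: Klf4 and Klf6 were higher, Klf9 and Klf13 lower. In WAT the Klf9 difference was not called with the reported settings, but it was called with some others given below. The 250 bases before the annotated start are given 5′ to 3′ on the strand of the gene, from RefSeq on build GRCm38.p6. Capitals mark letters that match 1 of 3 motifs on either strand. The GC box, to which KLF and SP proteins bind, was searched for as GGGCGGG. The other two were the CCAAT box, searched for by the letters of its name, and the site of the AP-1 factors (JUN and FOS), searched for as TGANTCA with any base at the N.
Klf4, chr4:55532476-55532725, minus strand: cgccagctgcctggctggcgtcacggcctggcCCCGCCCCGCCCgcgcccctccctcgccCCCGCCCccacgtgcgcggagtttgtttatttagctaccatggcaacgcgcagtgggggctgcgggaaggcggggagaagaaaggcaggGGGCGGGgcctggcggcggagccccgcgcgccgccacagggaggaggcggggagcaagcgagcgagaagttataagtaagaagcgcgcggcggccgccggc
Klf6, chr13:5861239-5861488, plus strand: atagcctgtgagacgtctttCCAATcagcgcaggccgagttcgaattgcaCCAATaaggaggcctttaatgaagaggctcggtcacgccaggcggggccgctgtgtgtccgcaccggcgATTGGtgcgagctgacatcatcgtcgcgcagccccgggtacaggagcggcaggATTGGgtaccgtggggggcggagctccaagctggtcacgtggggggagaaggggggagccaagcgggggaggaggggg
Klf9, chr19:23140976-23141225, plus strand: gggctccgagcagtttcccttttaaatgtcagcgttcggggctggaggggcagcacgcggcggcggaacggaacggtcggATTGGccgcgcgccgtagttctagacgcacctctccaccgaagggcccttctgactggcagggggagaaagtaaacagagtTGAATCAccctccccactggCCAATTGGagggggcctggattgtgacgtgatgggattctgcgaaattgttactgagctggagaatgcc
Klf13, chr7:63938916-63939165, minus strand: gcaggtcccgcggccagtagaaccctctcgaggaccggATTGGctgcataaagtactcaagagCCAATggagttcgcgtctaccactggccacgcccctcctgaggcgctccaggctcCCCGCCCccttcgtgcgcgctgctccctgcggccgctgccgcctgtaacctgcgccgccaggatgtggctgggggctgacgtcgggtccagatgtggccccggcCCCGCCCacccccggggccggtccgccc
Matches were counted over 300 bases, 250 before to 50 after the start, on both strands. The table of promoters held 8 of the 10 members, not Klf10 and Klf16. A GC box was present in 5 of these 8 (4 matches in Klf4, 4 in Klf3, 3 in Klf11, 2 in Klf2 and 2 in Klf13, with some matches overlapping) and in 25.6% of all 32851 promoters of this length. Klf6 had no GC box but 4 CCAAT boxes, Klf9 had 3, of which a pair overlapped, and Klf11 and Klf13 had 2 each. CCAAT was found in 37.4% of all promoters. The single AP-1 match was in Klf9 (7.81% of all promoters), and the CACCC box CCACACCC (3.56%), the cyclic AMP response element TGACGTCA (1.79%) and the TATA box TATAAA (13.6%) matched in none of the 8. Klf7 matched none of the 6 motifs. These are matches of letters and not shown sites.

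Expression was given as FPKM, that is reads scaled to gene length and to the reads of the library on genes, so levels can be compared between genes per length. All 10 members reached the FPKM of 1 in 2 libraries that was needed for a test. Between 39452696 and 52893848 reads fell on genes in replicates 1 and 2, against 16392420 to 41675648 in replicate 3, which is in a table of its own, and these gave 29 reads for the member with the fewest (Klf2) and 23528 for that with the most (Klf6). In WAT day 8 EGCG replicate 3, 5 genes took 61.0% of the reads, against at most 10.5% in any other library, which lowers the FPKM of all other genes there. Replicate 3 was therefore used for direction only, after rescaling by the median ratio over genes, and levels set across the tables rest on separate scalings. Changes are differences of log2(FPKM + 1) with the standard error (SE) of the limma fit on replicates 1 and 2, and a change was called at a Benjamini-Hochberg adjusted p under 0.05 over 14095 genes. That scale understates the change of low genes such as Klf2, and ratios of mean FPKM are given beside many of the changes. Among replicates 1 and 2, adipocyte markers were present in every library, and Hoxc10, a marker of inguinal fat, had 3 reads or fewer in at least 1 library of each BAT group. Klf7 overlaps the genes Gm17427 and Gm13748 on the opposite strand, and Klf9 contains Mir1192. Whether reads were counted by strand is not given in the sources used here, so the Klf7 level may hold reads of its neighbours.

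Klf9 was the most abundant member in 7 of the 8 groups, and Klf6 in BAT day 8 EGCG. The group means of Klf9 ran from 40.8 to 116 FPKM and those of Klf6 from 17.5 to 106. Klf4 spanned 6.25 to 57.2 and Klf13 13.9 to 39.9, while Klf3 (13.6 to 32.5) and Klf10 (8.71 to 13.8) varied less. Klf7 (1.81 to 5.50), Klf11 (1.45 to 3.64) and Klf16 (3.24 to 8.74) were low in all groups, while Klf2 ran from 0.820 to 14.8, in BAT day 8 EGCG above Klf10 (10.1) and Klf13 (13.9). The ratio of the highest to the lowest group mean was 18.0 for Klf2 and 1.59 for Klf10, and Klf4 (9.16) and Klf6 (6.05) came after Klf2. BAT day 4 control was the lowest group for 6 members (Klf2, Klf4, Klf6, Klf7, Klf10 and Klf11).

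**Figure D1:**
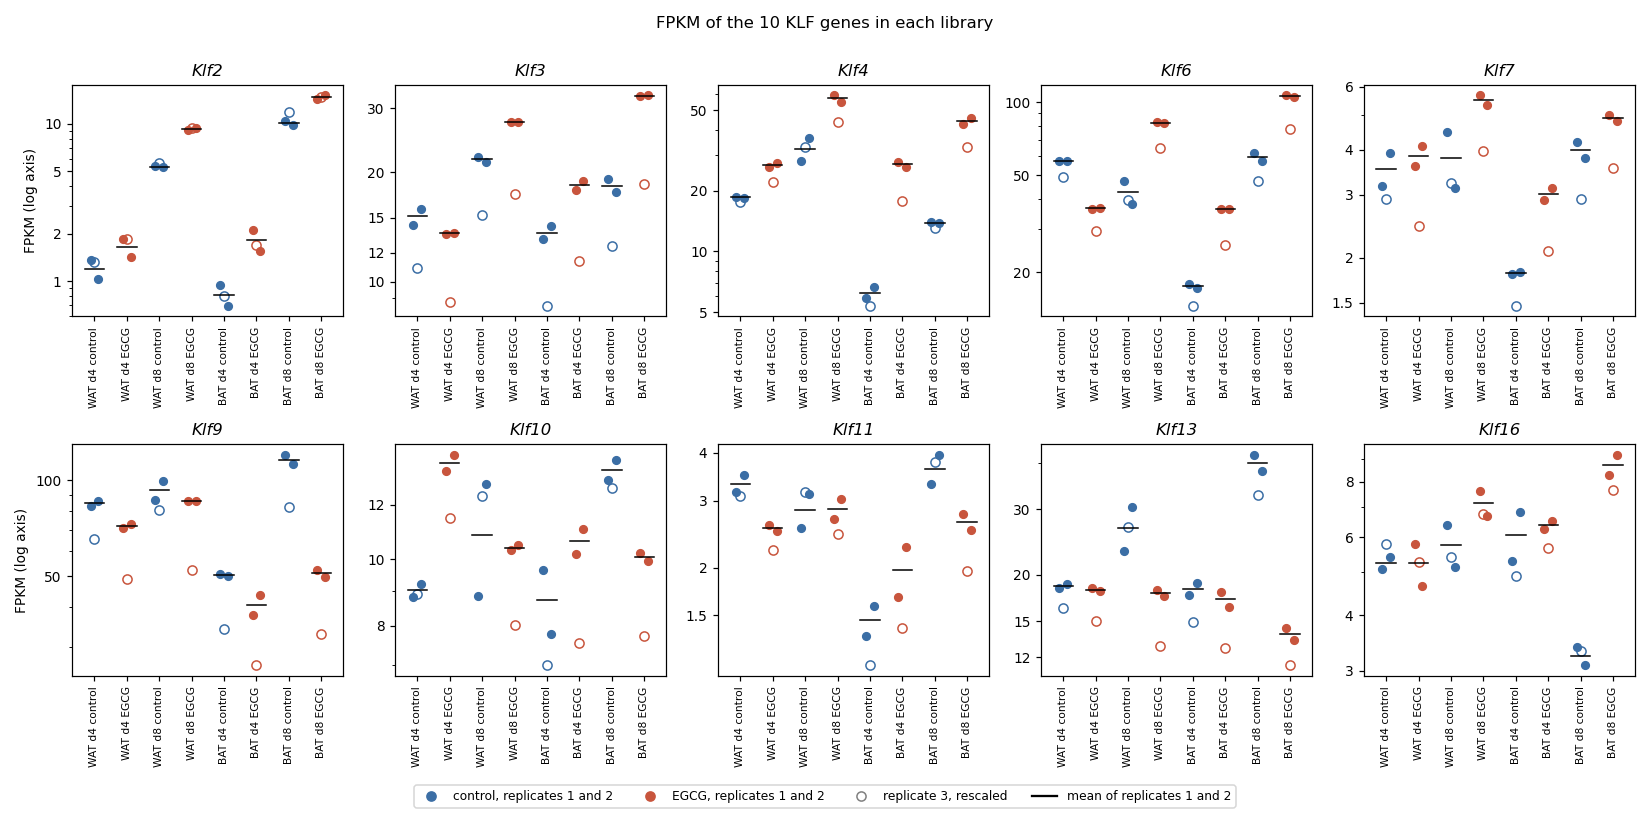
FPKM (log axis, its range set for each gene) of the 10 KLF genes in each library; filled points are replicates 1 and 2, open points are replicate 3 after rescaling, and bars are means of replicates 1 and 2. BAT day 8 EGCG is the highest group for Klf2, Klf3, Klf6 and Klf16 and the lowest for Klf13.

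Klf6 (ENSMUSG00000000078.6, chr13:5860735-5869639 on build mm9, plus strand) is the member for which the set was chosen. In WAT on day 4 it stood at 57.4, 57.4 and 51.6 FPKM in control replicates 1, 2 and 3 and at 36.4, 36.7 and 33.5 with EGCG. In BAT it stood at 17.9, 17.2 and 16.9 in control and at 36.2, 36.4 and 31.7 with EGCG. No EGCG library overlapped the control libraries of its depot, and the EGCG levels of the depots met at 36.5 ± 0.260 in WAT and 36.3 ± 0.147 in BAT (SD, n = 2 each). The log2 difference was -0.64 (SE 0.077) in WAT and 1.01 (SE 0.077) in BAT, and 1.65 (SE 0.11) between the depots. Rescaled replicate 3, which is outside that fit, gave -0.72 and 0.79, from 1 library a group and without a test.

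The other members on day 4 are also given without a test. Klf4 (ENSMUSG00000003032.7, mm9 chr4:55540013-55545347) went with EGCG from 5.86, 6.64 and 6.24 to 27.7, 26.2 and 21.7 FPKM in BAT, a ratio of means of 4.32, and from 18.6, 18.4 and 18.4 to 26.3, 27.5 and 25.1 in WAT, a ratio of 1.45. No EGCG library of either depot reached down to its controls. Klf10 (ENSMUSG00000037465.8, mm9 chr15:38221219-38230464) went from 8.82, 9.20 and 9.32 to 13.4, 14.2 and 13.0 in WAT. Klf9 was lower with EGCG in both depots (log2 difference -0.23 in WAT and -0.31 in BAT). Klf2, Klf3 and Klf7 differed by 0.63, 0.41 and 0.51 in BAT and by 0.26, -0.14 and 0.10 in WAT. In the same order, the ratios of mean FPKM were 2.22, 1.35 and 1.67 in BAT and 1.36, 0.898 and 1.09 in WAT. Klf11 differed by -0.29 in WAT and 0.27 in BAT, and Klf13 and Klf16 by no more than 0.09 in either depot. Past the threshold over all genes were 2 members higher and 2 lower in WAT, where 34.4% of all tested genes were called higher and 19.3% lower (median-ratio scaling shifts the median over all genes by -0.11), and 5 higher and 1 lower in BAT (27.9% and 20.6%). For the difference between depots, 4 members were past it toward BAT and 0 toward WAT (12% and 16.1%). The choice of members used these contrasts, so nothing is read from the counts.

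On day 8, which the choice did not use, EGCG cultures of both depots held more Klf2, Klf3, Klf4 and Klf6 and less Klf13 than controls. In BAT 5 members rose (Klf2, Klf3, Klf4, Klf6 and Klf16), with 46.5% of all tested genes called higher, and 4 fell (Klf9, Klf10, Klf11 and Klf13), with 26.1% called lower. In WAT 5 rose (Klf2, Klf3, Klf4, Klf6 and Klf7; 44.7% of all genes) and 1 fell (Klf13; 18.9%). The shares that rose are close to those of all genes. The median change over the 10 members was 0.30 in WAT and 0.37 in BAT, against 0.17 over all tested genes in either depot, and median-ratio scaling shifts the latter by -0.16 and -0.15.

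**Figure D2:**
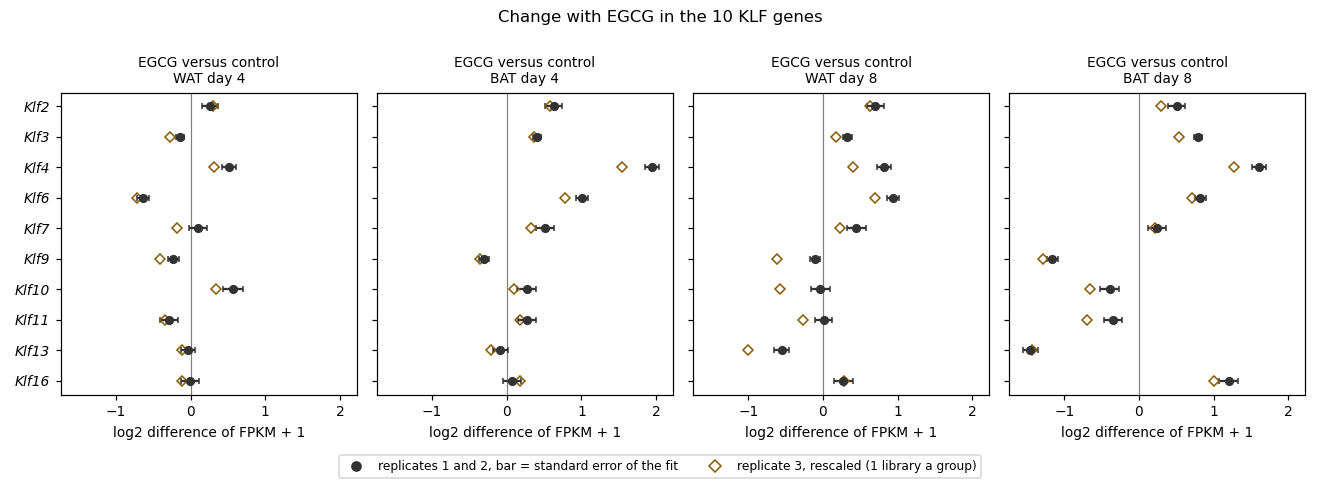
Log2 difference of FPKM + 1 between EGCG and control cultures for the 10 KLF genes in WAT and BAT on day 4 and day 8; filled points with bars are replicates 1 and 2 with the SE of the fit, and diamonds are rescaled replicate 3 from 1 library a group. Klf6 lies left of 0 in WAT on day 4 (-0.64) and right of it in the other 3 panels, and Klf9, Klf10, Klf11 and Klf13 lie left of 0 in BAT on day 8.

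Klf6 stood in BAT on day 8 at 61.8, 57.3 and 50.1 FPKM in control and at 107, 105 and 95.7 with EGCG. In WAT it stood at 47.6, 38.0 and 40.0 in control, and at 82.9 and 81.7 in EGCG replicates 1 and 2. Replicate 3 of that group read 29.6 as deposited and 64.6 after rescaling. Klf6 thus rose in both depots, 1.78-fold in BAT (log2 change 0.82, SE 0.077, limma adjusted p = 1.27e-06) and 1.92-fold in WAT (0.94, SE 0.077, adjusted p = 7.93e-07). The depot difference was -0.11 with a 95% interval of -0.35 to 0.13. Without WAT day 8 control replicate 1 that difference was -0.27 (adjusted p = 0.00499), and without replicate 2 it was 0.05 (adjusted p = 0.585). Whether the EGCG difference of Klf6 changed from day 4 to day 8 was not tested, because the day 4 contrast chose the gene.

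Klf4 had the largest fold change of the members that rose in BAT, and in WAT it came after Klf6. In BAT it went from 13.9, 13.8 and 13.8 FPKM to 42.5, 45.9 and 40.4, 3.19-fold (log2 change 1.60, SE 0.095, adjusted p = 2.39e-08). In WAT it went from 28.1, 36.3 and 33.1 to 59.3 and 55.2, with 43.7 in rescaled replicate 3, 1.78-fold (0.82, adjusted p = 1.34e-05). No EGCG library overlapped the controls of its depot once replicate 3 was rescaled. The change was larger in BAT by 0.78 (SE 0.13, adjusted p = 0.00086), where the control level was lower, and EGCG cultures still held less Klf4 in BAT (44.2 ± 2.35) than in WAT (57.2 ± 2.92; SD, n = 2 each).

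Klf2 (ENSMUSG00000055148.7, mm9 chr8:74842932-74845555), which like Klf4 is induced by the ERK5 kinase through MEF2 factors and is abundant in endothelium, rose from 10.4, 9.87 and 12.6 to 14.4, 15.1 and 18.2 in BAT, 1.46-fold (adjusted p = 0.00155). In WAT it rose from 5.37, 5.29 and 5.72 to 9.14 and 9.44, with 9.33 in rescaled replicate 3, 1.74-fold (adjusted p = 0.000177). The depot difference was -0.20 (95% interval -0.55 to 0.15). Klf3 (ENSMUSG00000029178.7, mm9 chr5:65194628-65221368) rose from 19.1 and 17.6 to 32.4 and 32.5 in BAT, 1.77-fold (adjusted p = 1.35e-07). In WAT it went from 22.1 and 21.3 to 27.6 and 27.5, 1.27-fold (adjusted p = 0.000338). The call in WAT was lost with median-ratio scaling (0.14, adjusted p = 0.0583), and the depot difference of 0.46 had an adjusted p of 0.000993. Replicate 3 of Klf3 lay below replicates 1 and 2 in all 8 groups. Klf7 (ENSMUSG00000025959.6, mm9 chr1:64076021-64168856) rose 1.45-fold in WAT (adjusted p = 0.00654), a call that was lost with median-ratio scaling (adjusted p = 0.0646) and without WAT day 8 control replicate 2 (0.24, adjusted p = 0.0743). Its change in BAT was 0.24 (95% interval -0.02 to 0.51).

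Klf16 (ENSMUSG00000035397.7, mm9 chr10:80029874-80040041) went in BAT from 3.39, 3.09 and 3.51 to 8.29, 9.20 and 9.42 FPKM, 2.70-fold (log2 change 1.20, SE 0.12, adjusted p = 2.93e-06). In WAT it went from 6.39 and 5.14 to 7.62 and 6.71, a change of 0.28 (95% interval 0.00 to 0.55) that missed the threshold with all libraries and passed it without WAT day 8 control replicate 1 (0.41, adjusted p = 0.0248). The difference between depots was 0.92 (adjusted p = 0.00154). Klf16 and Klf13 belong to the same Sin3A-binding group of the family and moved in opposite directions in BAT.

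Klf13 (ENSMUSG00000052040.7, mm9 chr7:71031237-71083801) fell in BAT from 42.0, 37.9 and 34.6 to 14.4, 13.4 and 14.1 FPKM, to 0.348 of the control level (log2 change -1.46, SE 0.099, adjusted p = 7.75e-08). In WAT it fell from 23.2, 30.4 and 27.1 to 18.2 and 17.5, with 12.9 in rescaled replicate 3, to 0.666 of control (-0.55, adjusted p = 0.000449). The fall was larger in BAT by 0.91 (depot difference -0.91, adjusted p = 0.000408). Klf9 (ENSMUSG00000033863.1, mm9 chr19:23215716-23241401) fell in BAT from 120, 112 and 87.0 to 52.5, 49.9 and 40.6, to 0.442 of control (-1.16, SE 0.072, adjusted p = 3.38e-08). In WAT it stood at 86.4, 99.2 and 81.8 in control and at 85.7 and 86.2 with EGCG, with 52.2 in rescaled replicate 3. That change of -0.11 (95% interval -0.26 to 0.05) missed the threshold, but it was called with median-ratio scaling (-0.31, adjusted p = 0.00397) and without WAT day 8 control replicate 1 (-0.20, adjusted p = 0.0308). The WAT change was also called with quantile normalization (-0.22, adjusted p = 0.0238) and with replicate 3 added to the fit (-0.65, adjusted p = 0.0387). With replicate 3 added except for WAT day 8 EGCG it was -0.15 (adjusted p = 0.0389). The depot difference of Klf9 was -1.06 (adjusted p = 1.47e-05).

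The TGF-beta-inducible pair fell less. Klf10 went in BAT from 13.1, 14.0 and 13.5 to 10.2, 9.93 and 9.51, to 0.745 of control (adjusted p = 0.0171), and Klf11 (ENSMUSG00000020653.5, mm9 chr12:25336236-25347639) from 3.32, 3.95 and 4.00 to 2.77, 2.52 and 2.41, to 0.727 (adjusted p = 0.0182). The groups did not overlap for either gene. The log2 change of Klf10 was -0.39 and that of Klf11 -0.35. The Klf10 call was lost without BAT day 8 control replicate 2 (-0.35, adjusted p = 0.0868), EGCG replicate 1 (-0.41, adjusted p = 0.0503) or EGCG replicate 2 (-0.37, adjusted p = 0.0693), with a change of about the same size each time. The Klf11 call was lost without control replicate 2 (-0.25, adjusted p = 0.142) or EGCG replicate 2 (-0.30, adjusted p = 0.099). In WAT the changes were -0.03 (95% interval -0.32 to 0.25) for Klf10 and 0.01 (-0.24 to 0.26) for Klf11. Klf10 in WAT was -0.28 without WAT day 8 control replicate 1 (adjusted p = 0.0272) and 0.21 without replicate 2 (adjusted p = 0.0856). In the test of the depot difference, 3 members were higher (Klf3, Klf4 and Klf16; 19.4% of all genes) and 2 lower (Klf9 and Klf13; 19.7%). Klf7 in this test was -0.41 without WAT day 8 control replicate 1 (adjusted p = 0.0405), and Klf10 was -0.60 without replicate 2 (adjusted p = 0.00314).

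From day 4 to day 8 control cultures of both depots gained Klf2, Klf3, Klf4 and Klf13. In BAT controls 9 members rose and 1, Klf16, fell, where 28.7% of all tested genes were called higher and 40.4% lower. In WAT controls 4 rose (Klf2, Klf3, Klf4 and Klf13; 27.7% of all genes) and Klf6 alone fell (33.2%). The median change over the members was 0.98 in BAT and 0.17 in WAT, against -0.10 and -0.03 over all genes, and median-ratio scaling shifts the median over all genes in BAT by 0.12. These contrasts share their day 4 controls with the contrast that chose Klf6. Its changes are therefore given without a p, and its place in these counts is a description.

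**Figure D3:**
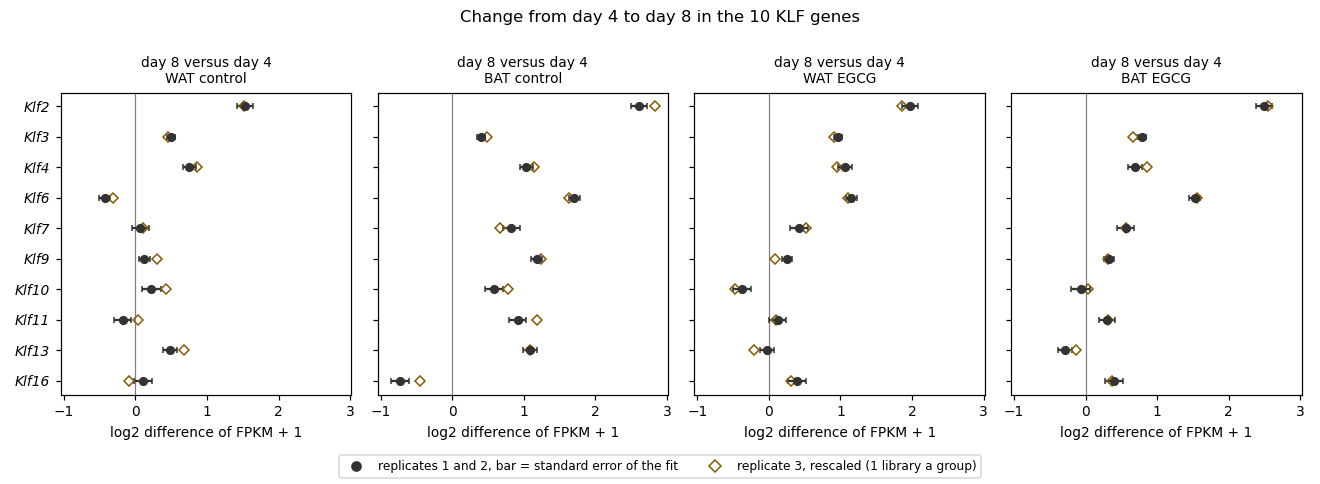
Log2 difference of FPKM + 1 between day 8 and day 4 for the 10 KLF genes in control and EGCG cultures of WAT and BAT; filled points with bars are replicates 1 and 2 with the SE of the fit, and diamonds are rescaled replicate 3 from 1 library a group. Klf2 lies farthest right in every panel, and Klf6 lies left of 0 in WAT controls (-0.43) and right of it in BAT controls (1.71).

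Klf2 stood in BAT controls at 0.942, 0.698 and 0.934 FPKM on day 4 and at 10.4, 9.87 and 12.6 on day 8, a 12.3-fold rise (log2 change 2.61, SE 0.11, adjusted p = 2.93e-09). In WAT controls it went from 1.36, 1.04 and 1.39 to 5.37, 5.29 and 5.72, 4.45-fold (1.53, adjusted p = 3.54e-07). Every day 8 control library was above every day 4 control library of its depot. Klf6 stood on day 8 at 3.40-fold its day 4 level in BAT controls (log2 difference 1.71) and at 0.745 of it in WAT controls (-0.43). The difference between depots in this change was not tested. Klf4 rose 2.22-fold in BAT and 1.74-fold in WAT (adjusted p = 1.4e-06 and 3.01e-05).

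Klf9 in BAT controls went from 51.0, 50.1 and 39.6 to 120, 112 and 87.0, 2.29-fold (adjusted p = 4.28e-08), and Klf13 from 17.6, 19.0 and 17.3 to 42.0, 37.9 and 34.6, 2.18-fold (adjusted p = 1.36e-06). Klf11, Klf7 and Klf10 rose 2.50-fold, 2.21-fold and 1.55-fold there (adjusted p = 2.18e-05, 7.38e-05 and 0.00167). Klf16 fell in BAT controls from 5.31, 6.84 and 5.69 to 3.39, 3.09 and 3.51, to 0.533 of day 4 (adjusted p = 0.000229). In WAT controls Klf13 rose 1.43-fold (adjusted p = 0.00123), and Klf9 changed by 0.13 (95% interval -0.03 to 0.29), Klf10 by 0.22 (-0.06 to 0.51), Klf7 by 0.07 (-0.20 to 0.34), Klf11 by -0.18 (-0.43 to 0.08) and Klf16 by 0.11 (-0.17 to 0.38). Without WAT day 8 control replicate 1, Klf9 (0.23, adjusted p = 0.0208) and Klf10 (0.47, adjusted p = 0.00178) were called there.

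In EGCG cultures 7 members rose from day 4 to day 8 in WAT, all but Klf10, Klf11 and Klf13, and Klf10 fell, where 31.8% of all genes were called higher and 27.7% lower. In BAT 8 rose, all but Klf10 and Klf13, and Klf13 fell (29.7% and 28.2%). Klf2 rose 8.10-fold in BAT and 5.68-fold in WAT (adjusted p = 9.59e-09 and 5.76e-08). Klf6 stood on day 8 at 2.92-fold its day 4 level in BAT and at 2.25-fold in WAT. Klf3 rose 2.03-fold in WAT and 1.77-fold in BAT. Klf16 rose 1.37-fold in either depot (adjusted p = 0.0166 in WAT and 0.0161 in BAT), and in BAT the control cultures went the other way. Klf13 fell to 0.809 in BAT with EGCG (adjusted p = 0.0273), where the control cultures gained it, and changed by -0.03 in WAT (95% interval -0.25 to 0.19). These contrasts use the day 4 EGCG libraries that entered the choice, so Klf6 is given without a p and its place in the counts is a description.

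Several of the smaller changes with time in EGCG cultures lost their call when 1 library was left out, most of them at a similar size of change. In WAT, Klf10 changed by -0.38 with all libraries and by -0.34 to -0.41 without any 1 of the 4, and its call was lost each time (adjusted p = 0.057 and 0.108 without day 4 EGCG replicates 1 and 2, 0.0899 and 0.0739 without day 8 EGCG replicates 1 and 2). Klf7 went from 0.42 to 0.35 without WAT day 4 EGCG replicate 1 (adjusted p = 0.0747) and to 0.38 without WAT day 8 EGCG replicate 1 (adjusted p = 0.0613). Klf9 went from 0.25 to 0.23 without WAT day 4 EGCG replicate 1 (adjusted p = 0.0569). Klf16 went from 0.39 to 0.26 without WAT day 4 EGCG replicate 2 (adjusted p = 0.15) and to 0.31 without WAT day 8 EGCG replicate 1 (adjusted p = 0.114). The WAT count of 8 called members was 5 without either replicate 1. In BAT, Klf13 went from -0.29 to -0.23 without BAT day 4 EGCG replicate 1 (adjusted p = 0.154) and to -0.24 without BAT day 8 EGCG replicate 2 (adjusted p = 0.144). Without the same libraries Klf16 went from 0.40 to 0.37 (adjusted p = 0.0761) and 0.33 (adjusted p = 0.104). Klf11 moved most, from 0.30 to 0.16 without BAT day 4 EGCG replicate 1 (adjusted p = 0.333), and stood at 0.25 and 0.35 without BAT day 8 EGCG replicates 1 and 2 (adjusted p = 0.185 and 0.072).

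Control cultures of BAT and WAT were compared on each day. On day 4, 5 members were lower in BAT than in WAT (Klf4, Klf6, Klf7, Klf9 and Klf11) and 0 were higher, where 14.4% of all genes were called lower and 41.4% higher and the median over all genes of 0.15 is shifted by -0.13 with median-ratio scaling. These control libraries entered the contrast that chose Klf6, so its difference is given without a p and its place in that count is a description. Klf6 stood at 0.305 of the WAT level (log2 difference -1.66), Klf4 at 0.338 (-1.43, adjusted p = 5.64e-07), Klf11 at 0.437 (adjusted p = 0.000125), Klf7 at 0.511 (adjusted p = 0.000584) and Klf9 at 0.597 (adjusted p = 9.17e-06). Klf2 (0.685 of the WAT level, log2 difference -0.27, 95% interval -0.52 to -0.03) and Klf3 (-0.14, -0.26 to -0.01) missed the threshold. Both were called with median-ratio scaling (adjusted p = 0.0195 and 0.00127), Klf2 also without WAT day 4 control replicate 2 (0.0377) or BAT day 4 control replicate 1 (0.0435), and Klf3 without WAT day 4 control replicate 1 (0.022) or BAT day 4 control replicate 2 (0.0413). Klf10 (-0.05, -0.33 to 0.23), Klf13 (-0.03, -0.25 to 0.19) and Klf16 (0.17, -0.10 to 0.44) were not called.

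On day 8, 4 members were higher in BAT controls (Klf2, Klf6, Klf9 and Klf13; 31.6% of all genes) and 3 lower (Klf3, Klf4 and Klf16; 22% of all genes). Klf2 stood 1.90-fold above WAT (adjusted p = 8.55e-05), Klf13 1.49-fold (adjusted p = 0.000482), Klf6 1.39-fold (adjusted p = 0.000289) and Klf9 1.25-fold (adjusted p = 0.00278). Klf4 stood at 0.431 of WAT (adjusted p = 1.51e-06), Klf16 at 0.562 (adjusted p = 0.000737) and Klf3 at 0.848 (adjusted p = 0.00553). Klf6 and Klf9 were thus below WAT on day 4 and above it on day 8, and the change of that difference was not tested. The Klf3 call was lost without BAT day 8 control replicate 2 (adjusted p = 0.0579), and the Klf9 call with quantile normalization (0.0953). With only the groups of this contrast in the fit, both calls were lost (0.0578 for Klf3 and 0.0507 for Klf9). Rescaled replicate 3 gave a difference of only 0.03 for Klf9. Without WAT day 8 control replicate 2, Klf10 (0.56, adjusted p = 0.000676) and Klf11 (0.38, adjusted p = 0.035) were called, and Klf11 also without BAT day 8 control replicate 1 (adjusted p = 0.0492).

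WAT day 8 control replicate 1, on which several of these calls turned, stood low in 3 of the 5 glucocorticoid response genes. Tsc22d3 (GILZ, a glucocorticoid-induced regulator) read 37.4 FPKM there against 96.2 and 93.3 in replicates 2 and 3, and Fkbp5, a cochaperone of the glucocorticoid receptor, 52.7 against 103 and 102. Zbtb16, a zinc finger gene, read 17.3 against 31.1 and 22.3. Per1 (25.1 against 26.6 and 24.2) and the receptor gene Nr3c1 (18.5 against 17.4 and 14.8) were not low there. Klf9 read 86.4 there, against 99.2 in replicate 2 of the same table and 81.8 in replicate 3. Replicate 3 of Klf9 lay below replicates 1 and 2 in all 8 groups, so its 81.8 does not show whether Klf9 was low in replicate 1. Klf10 read 8.84 against 12.9 and 12.5 and Klf13 23.2 against 30.4 and 27.1, while Klf7 read 4.48 against 3.12 and 3.28. The part of that library in the results above was tested only by leaving it out.

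In the order of group means, Klf6 was highest in BAT day 8 EGCG (106 ± 0.817 FPKM) and WAT day 8 EGCG (82.3 ± 0.801), followed by BAT day 8 control (59.5 ± 3.22) and WAT day 4 control (57.4 ± 0.00225), whose replicates overlapped. WAT day 8 control (42.8 ± 6.80) came next, then WAT day 4 EGCG and BAT day 4 EGCG, which overlapped, and BAT day 4 control (17.5 ± 0.455; SD, n = 2 throughout). For Klf4 the order began with WAT day 8 EGCG and BAT day 8 EGCG, and the groups with overlapping replicates were BAT day 4 EGCG (27.0 ± 1.07) and WAT day 4 EGCG (26.9 ± 0.874). For Klf13 the day 8 controls led (BAT 39.9 ± 2.90, WAT 26.8 ± 5.08), 5 groups between 17.2 and 18.7 overlapped their neighbours, and BAT day 8 EGCG was lowest. For Klf9 the order ran from BAT day 8 control (116 ± 5.61) to BAT day 4 EGCG (40.8 ± 4.12), with overlap between WAT day 8 EGCG and WAT day 4 control and between BAT day 8 EGCG and BAT day 4 control.

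Across the 16 libraries of replicates 1 and 2 the log2 levels of Klf6 and Klf7 were the most alike of all 45 pairs of members (Pearson's r = 0.90), followed by Klf2 and Klf3 (0.86), Klf4 and Klf7 (0.82) and Klf2 and Klf6 (0.80). Klf9 correlated with Klf11 (0.79) and Klf13 (0.74) and hardly with Klf3 (0.00) or Klf4 (0.06). Klf13 and Klf16 gave the lowest r (-0.83), and Klf9 and Klf16 gave -0.62. These values describe 8 groups in pairs of libraries that share depot, day and treatment, and carry no p.

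**Figure D4:**
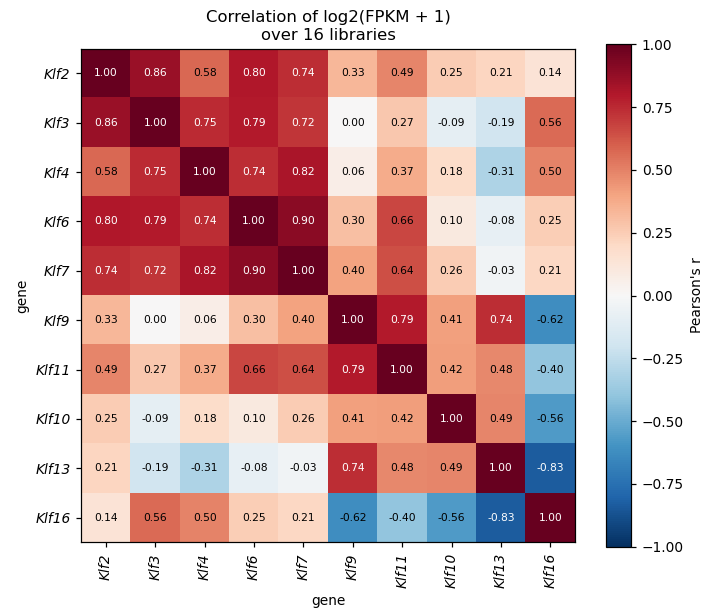
Pearson's r between the log2(FPKM + 1) levels of each pair of the 10 KLF genes over 16 libraries (both axes list the genes, and color gives r from -1 to 1). Klf2, Klf3, Klf4, Klf6 and Klf7 form a block with r of 0.58 to 0.90, and the Klf16 row is negative for Klf9, Klf10, Klf11 and Klf13.

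The protein-coding genes whose levels were most like a member over the same libraries were Synj2 (0.97) and Thbs1 (0.95) for Klf6, Metrnl (0.97) and Elf1 (0.95) for Klf4, Plekhb1 (0.98) and Dysf (0.98) for Klf2, and Lasp1 (0.99) and Wdr1 (0.99) for Klf3. For Klf13 they were Dhdh (0.98) and Nampt (0.98), for Klf9 Lamb3 (0.92) and Ccdc3 (0.91), for Klf16 Senp5 (0.93) and Cdv3 (0.93), and for Klf7 Magi3 (0.96) and Otud1 (0.94). The best matches of Klf10 (9430020K01Rik, 0.90, and Ankrd37, 0.88) and Klf11 (Elk4, 0.85, and Slc39a3, 0.83) were weaker.

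Of the 7 further KLF genes, 3 were tested, and Klf1, Klf8, Klf14 and Klf17 were below the expression filter. Klf15, known as a glucocorticoid-induced activator in fat, fell with EGCG on day 8 from 34.7 to 3.74 FPKM in BAT and from 24.5 to 6.21 in WAT (adjusted p = 1.07e-09 and 1.35e-07). Klf5 rose in WAT (adjusted p = 0.00379) and fell in BAT (adjusted p = 0.018) on day 8. Klf12 reached the FPKM of 1 needed for a test only in EGCG libraries, so it is given without one: on day 8 it stood at 0.731 and 0.496 in control and 1.67 and 1.48 with EGCG in WAT, and at 0.849 and 0.540 against 2.00 and 1.77 in BAT. Among the related SP genes 4 of 9 were tested, and 1 was called in each EGCG contrast (higher in WAT on day 8, lower in the other 3). Of all tested genes, 44.7% were called higher in WAT on day 8. The shares called lower were 19.3% in WAT on day 4, 20.6% in BAT on day 4 and 26.1% in BAT on day 8.

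Of 13 genes for KLF partners (corepressors, acetyltransferases and ubiquitin ligases), 10 rose and 1 fell with EGCG on day 8 in WAT, where 44.7% of all tested genes were called higher and 18.9% lower, and 9 rose and 2 fell in BAT (46.5% and 26.1%). Their median change was 0.36 in WAT and 0.46 in BAT, against the 0.17 over all genes that median-ratio scaling shifts by -0.16 and -0.15. On day 4 the counts were 6 and 4 in WAT (34.4% and 19.3% of all genes) and 5 and 3 in BAT (27.9% and 20.6%). Ctbp1, the corepressor bound by KLF3, rose on day 8 from 50.7 to 66.8 FPKM in WAT and from 48.7 to 70.2 in BAT (adjusted p = 3.7e-05 and 1.97e-06), and Sin3a was at 0.05 (adjusted p = 0.422) and 0.04 (adjusted p = 0.502) on the log2 scale. Of 5 genes of the ERK5 and MEF2 pathway, 4 rose and 1 fell in WAT and 3 rose and 0 fell in BAT on day 8, against the same shares of all genes, with a median change of 0.32 in WAT and 0.15 in BAT. Mapk7, which encodes ERK5, rose 1.40-fold in WAT and 1.91-fold in BAT (adjusted p = 0.000466 and 1.83e-06). On day 4, 3 rose and 1 fell in WAT and 2 rose and 0 fell in BAT, against the day 4 shares given above.

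The TGF-beta-induced genes Smad7, Skil and Ctgf all rose with EGCG in BAT on day 4 and in both depots on day 8. In WAT on day 4 1 of the 3 rose and 2 fell. Of all tested genes, 27.9% were called higher and 20.6% lower in BAT on day 4, and 34.4% and 19.3% in WAT. On day 8 the shares were 46.5% and 26.1% in BAT and 44.7% and 18.9% in WAT. Ctgf, a matrix-associated growth factor gene, fell in WAT on day 4 from 59.1 to 29.8 FPKM and rose in BAT from 19.5 to 137 (adjusted p = 0.001 and 2.84e-07), and Skil, a SMAD corepressor, fell to 0.821 and rose 1.64-fold (adjusted p = 0.0185 and 4.62e-05). Of the TGF-beta-inducible members, Klf10 and Klf11 fell in BAT on day 8. All 5 glucocorticoid response genes fell with EGCG in BAT on day 8, and in WAT 3 fell and 1 rose. Fkbp5 went to 0.170 of control in BAT and Zbtb16 from 35.0 to 3.83 FPKM (adjusted p = 4.55e-07 and 4.99e-08), beside the fall of Klf9 to 0.442. In WAT, where 3 of these genes fell, Klf9 was not called with the reported settings (-0.11, limma adjusted p = 0.222). With median-ratio scaling its fall was called (-0.31, adjusted p = 0.00397), as it was with other settings given above. On day 4, 1 of the 5 rose and 1 fell in each depot.

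Of the 7 adipose genes tied to KLF proteins, 5 fell and 0 rose with EGCG on day 8 in WAT, and 7 fell in BAT. Of all tested genes 18.9% were called lower in WAT and 26.1% in BAT. Pparg, the master regulator of adipogenesis, went from 60.2 to 8.56 FPKM in WAT and from 138 to 11.2 in BAT (adjusted p = 2.37e-09 and 9.37e-11), and Cebpa from 127 to 18.7 and from 230 to 28.2. Dlk1, which KLF6 is known to repress, fell in all 4 EGCG contrasts, on day 4 from 51.9 to 6.11 in WAT and from 15.2 to 3.68 in BAT. Cebpb, a target of KLF4, was higher with EGCG on day 4 in WAT (89.9 to 156 FPKM) and in BAT (97.0 to 143). On day 8 it fell in BAT (68.8 to 40.6, adjusted p = 1.96e-05). RNA levels alone do not show whether a KLF protein acted on these genes, and this was not tested.

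Cell type markers moved with time and with EGCG. From day 4 to day 8 in BAT controls all 7 adipocyte markers rose. Of 5 mural markers 3 rose and 1 fell there, where 28.7% of all tested genes were called higher and 40.4% lower. In WAT controls 6 adipocyte markers and all 5 macrophage markers rose and 0 fell (27.7% and 33.2% of all genes). With EGCG on day 4, 34.4% of all tested genes were called higher and 19.3% lower in WAT, and 27.9% and 20.6% in BAT. On day 8 the shares were 44.7% and 18.9% in WAT and 46.5% and 26.1% in BAT. All 7 adipocyte markers fell with EGCG in all 4 contrasts, and on day 8 their summed FPKM was 4938 to 5795 in control and 123 to 140 in EGCG libraries of WAT. In BAT it was 9870 to 9992 in control and 291 to 295 with EGCG. Of 6 endothelial markers 5 were tested. With EGCG 4 rose in WAT on either day and 5 in BAT on either day, and 0 fell, but their summed FPKM reached only 11.1 to 38.8 over all groups, and on day 8 it was 20.4 to 21.7 in control and 29.0 to 29.2 with EGCG in WAT. In BAT it was 16.1 to 16.5 in control and 33.4 to 34.3 with EGCG. All 5 macrophage markers fell in WAT and 4 of 5 in BAT on day 8, with sums of 94.0 to 106 in control and 54.9 to 58.1 with EGCG in WAT and of 100 to 103 and 56.9 to 57.6 in BAT. On day 4, 4 of them rose in WAT and 3 in BAT. The day 4 sums were 66.4 to 71.3 in control and 177 to 182 with EGCG in WAT, and 151 to 160 and 340 to 381 in BAT. Of 5 mural cell markers 2 rose and 1 fell in WAT and 2 rose and 2 fell in BAT on day 8, with summed FPKM of 244 to 324 in control against 468 to 486 with EGCG in WAT and of 295 to 335 against 985 to 1079 in BAT. On day 4, 1 mural marker rose and 2 fell with EGCG in WAT, where the sum was 161 to 177 in control and 123 to 127 with EGCG, and 4 rose and 0 fell in BAT, where it was 123 to 138 and 484 to 580. The sum was thus lower with EGCG in WAT and higher in BAT on day 4, as the level of Klf6 was. Klf6 was chosen for that pattern, so nothing is read from the match. With 1 marker up and 2 down, the lower sum in WAT rests on a part of these markers. The median log2 change of the mural markers was 0.002 in WAT and 0.82 in BAT on that day. On day 8 it was -0.13 in WAT and -0.01 in BAT, so the higher sums there rest on a part of these markers. Of 4 preadipocyte markers 4 fell in WAT and 3 in BAT on day 8. On day 4, 1 rose and 2 fell in WAT, and 0 rose and 1 fell in BAT. Their day 4 sums were 273 to 302 in control and 444 to 446 with EGCG in WAT, and 242 to 313 and 262 to 314 in BAT. No listed endothelial, macrophage, mural, adipocyte or preadipocyte marker had 3 reads or fewer in a library of replicates 1 and 2. The part of the cell types in the KLF levels was not tested.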

How the data were processed

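RNA sequencing of cultured cells gave 24 libraries, grouped by their labels. The authors deposited FPKM values in 2 tables, replicates 1 and 2 in the first and replicate 3 in the second. The submitters' processing notes name FastQC 0.11.9, HISAT2 2.2.0, HTSeq 0.11 and build mm9. Gene symbols and coordinates came from GENCODE vM1 on NCBIM37 (mm9). Whole reads were recovered for at least 99.8% of values in each library at a tolerance of 0.01, which gave the depths. FPKM depends on the reads taken by other genes, so 1 abundant gene group lowers all others.

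Genes with an FPKM of at least 1 in 2 of 16 libraries (14095) were fitted as log2(FPKM + 1) in limma 3.58.1 (trend, R 4.3.3), with 1 mean for each of 8 groups, 8 residual degrees of freedom (11.4 with the prior), two-sided tests and Benjamini-Hochberg adjustment within each of 12 contrasts at 0.05. The fit was tested on simulated data. Replicate 3 gave direction only. Replicates 1 and 2 were not treated as pairs, because differences of replicate 1 minus 2 correlated between groups by -0.08 to 0.08 only. Intervals are 95%. Alternatives were other pseudocounts, filters and scalings, voom on recovered reads, both tables together, a replicate block and leaving out libraries. All 10 members are named, other genes come from lists, and 2 genes most alike are given for each member. One gene of the lists is not reported here. The members and lists were chosen with earlier results of these data known.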

Additional observations from a re-analysis of the deposited data

Results flagged for a closer look

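The EGCG effect differed between depots on day 8 by the limma test of the difference itself for 5 members (BAT minus WAT, log2): Klf3 0.46 (SE 0.081), Klf4 0.78 (SE 0.13), Klf9 -1.06 (SE 0.10), Klf13 -0.91 (SE 0.14) and Klf16 0.92 (SE 0.17), each shown with its adjusted p above. With both tables in the fit, which brings in WAT day 8 EGCG replicate 3, this difference lost its call for Klf9 (-0.49, adjusted p = 0.303) and Klf13 (-0.34, adjusted p = 0.436). Klf9 and Klf13 kept their call for the EGCG fall in BAT when any 1 of the 4 libraries was left out.

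Other pairs of contrasts are listed because their groups did not overlap in replicates 1 and 2, in opposite directions. Non-overlap of 2 libraries against 2 is a weak rule, and the share of all genes that met it was not counted. Not called by limma were Klf11 with time in WAT control and WAT EGCG cultures (adjusted p = 0.212 and 0.388). Klf2 on day 4 (0.0581) and Klf11 on day 8 (0.0666) in BAT against WAT controls were not called either. Rescaled replicate 3 gave 0.03 for Klf11 with time in WAT controls. The day 4 EGCG differences chose the members, through Klf6, so the pairs that hold them are a description and no result, although the depot difference on day 4 was part of the fit. For all other pairs the difference was not tested. With EGCG on day 4 the WAT and BAT differences were -0.64 and 1.01 for Klf6, -0.14 and 0.41 for Klf3, and -0.29 and 0.27 for Klf11. Within WAT the EGCG differences on day 4 and day 8 were -0.64 and 0.94 for Klf6 and -0.14 and 0.33 for Klf3, and within BAT they were 0.27 and -0.39 for Klf10 and 0.27 and -0.35 for Klf11. From day 4 to day 8 the WAT and BAT controls gave -0.43 and 1.71 for Klf6 and -0.18 and 0.92 for Klf11. The change with time in WAT control and WAT EGCG cultures was -0.43 and 1.15 for Klf6 and -0.18 and 0.12 for Klf11. In BAT control and BAT EGCG cultures it was 1.08 and -0.29 for Klf13 and -0.73 and 0.40 for Klf16. The BAT to WAT difference of controls on day 4 and day 8 was -0.27 and 0.81 for Klf2, -1.66 and 0.48 for Klf6, -0.73 and 0.32 for Klf9 and -0.82 and 0.27 for Klf11. The pairs of Klf6 that use day 4 libraries also rest on values that chose it. The comparisons share control libraries, so these pairs are not independent of each other.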

How the results depend on the processing

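Of 176 recomputed counts of called members, 164 stayed within 1.5 times the value reported. With both tables and the table as a covariate, which brings in WAT day 8 EGCG replicate 3, the count was 1 for EGCG in WAT and 3 in BAT on day 4, 2 for EGCG in WAT on day 8, 2 for time in WAT controls, 5 for time in WAT EGCG and 5 in BAT EGCG cultures, 3 for BAT against WAT controls on day 8, and 2 and 3 for the depot difference on day 4 and day 8. Without that library it was 7 for EGCG in WAT on day 4. Leaving out 1 library gave 5 to 7 for time in WAT EGCG cultures. Of 1748 recomputed member values 1555 were rated as unchanged, 56 lost and 41 gained a call, and 71 of those without a test moved. In the tested contrasts 25 changed sign, none of which was called on both sides. Unchanged meant the same direction and call. For the day 4 EGCG contrasts, which had no test, it meant a shift under 1 SD of the replicates. A small difference there could change sign and still be rated as unchanged. The sign changes given here are those of the tested contrasts. Sign changes with both tables were Klf3 -0.072, Klf11 -0.32 and Klf16 -0.036 for EGCG in WAT on day 8, Klf9 -0.23 and Klf11 -0.16 for time in WAT EGCG cultures, and Klf2 0.15, Klf6 0.37, Klf7 0.19 and Klf10 0.12 for the depot difference on day 8. Without WAT day 8 EGCG replicate 3 in that fit Klf11 was -0.041 in WAT on day 8, and with median-ratio scaling -0.14. With quantile normalization Klf7 was -0.00025 for time in WAT controls, Klf16 -0.0019 for BAT against WAT on day 4 and Klf6 0.041 for the depot difference on day 8. Leaving out 1 library at a time changed a sign in these ranges: for EGCG in WAT on day 8, Klf10 -0.28 to 0.21 and Klf11 -0.10 to 0.12; for time in WAT controls, Klf7 -0.14 to 0.27, Klf10 -0.025 to 0.47 and Klf16 -0.028 to 0.24; for BAT against WAT on day 4, Klf10 -0.19 to 0.088 and Klf13 -0.081 to 0.019; for BAT against WAT on day 8, Klf7 -0.13 to 0.28; and for the depot difference on day 8, Klf6 -0.27 to 0.045. Apart from the settings that add or drop libraries or rescale, the cause was not tested. With a replicate block, Klf2 in BAT against WAT on day 4 (adjusted p = 0.0314) and Klf11 on day 8 (0.0326) were gained, no count moved past 1.5 times, and same-numbered libraries did not deviate together. Depth limits Klf2 on day 4 most.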
